A study of Homo sapiens with 44 samples.

Results

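The comparison covers 10 wells of H1 cells, 5 collected at day 5 and 5 at day 7 of directed cardiac differentiation, over all expressed genes. They are 10 of the 44 RNA-seq libraries of the series and were chosen by the day in their labels, with no measured value used in the choice. H1 is an established human embryonic stem cell line. All 10 wells were coated with the laminins LN-521 and LN-221, and all had received CHIR99021, which blocks the kinase GSK3 and so switches on Wnt signalling, at day 0 and IWP2, an inhibitor of Wnt production, at day 3. The day 5 wells were in basal medium with insulin-free B27 and IWP2, and the day 7 wells were in the same medium without IWP2, so that 2 more days of culture and the removal of IWP2 cannot be told apart. Total RNA was sequenced as 150-base read pairs from stranded libraries. The labels number the wells as biological replicates, 1 to 5 at day 5 and 1, 2, 3, 4 and 10 at day 7. They do not say whether the wells came from separate cultures, so p-values measure the spread between wells. For the tests of single genes that spread was estimated over all 44 libraries together, not over these 10 wells alone.

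In the heart, the first contractile cells arise from mesoderm that has left the primitive streak. Transcription factors such as NKX2-5, GATA4, TBX5 and MEF2C act together there on the genes of the sarcomere, the repeating unit in which myosin thick filaments slide along actin thin filaments anchored at Z-discs. HOXB1 marks posterior second heart field progenitors, which are set up by retinoic acid and add cells to the poles of the heart tube. MYBPC3 (a thick filament regulator), MYH6 (the atrial and early embryonic myosin heavy chain) and TNNT2 (the troponin subunit that binds tropomyosin) are standard markers of early cardiomyocytes.

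Library totals ran from 21139494 to 25674580 estimated counts at day 5 and from 24558514 to 28319506 at day 7, and each day was spread over 5 sequencing lanes. RNA integrity numbers were 9.6 to 10 except in day 5 replicate 4, at 8.4. Day 7 replicate 10 stood apart. Its median rank correlation with the other day 7 wells was 0.947, against 0.967 to 0.970 for the other 4. Its genes were also shifted by transcript length: over 4789 genes, the 1032 with a longest transcript under 2000 bases lay a median of 0.40 log2 units above the mean of the other day 7 wells, and the 386 of 8000 bases or more lay 0.26 below. The rank correlation of this deviation with transcript length was -0.558 in that well. Weaker trends with length were present in other wells, with 0.355 in day 7 replicate 4 and -0.286 in day 5 replicate 2. Where leaving that well out changed a call of day 7 against day 5 among the genes described here, the value without it is given. The mitochondrially encoded share of counts was 0.278 ± 0.0531% at day 5 and 0.297 ± 0.101% at day 7 (SD, n = 5 each), and a two-sided exact permutation test over all 252 splits gave p = 0.714. In the same test the 7SL RNA genes, whose share of TPM moves all other TPM values, held 36.6 ± 4.69% and 37.7 ± 4.30% (SD, n = 5 each, exact p = 0.651). Both p-values were 0.714 after adjustment over the pair.

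Levels are given as CPM (estimated counts scaled to library size and composition), in replicate order 1 to 5 at day 5 and 1, 2, 3, 4 and 10 at day 7. A gene was called when edgeR's quasi-likelihood test gave a Benjamini-Hochberg adjusted p under 0.05 over all 22955 tested genes together with a log2 fold change of at least 1 either way. "Rose" and "fell" below are used of called genes. By this rule 838 genes were called, 3.65% of those tested, with 630 higher at day 7 (2.74%) and 208 lower (0.906%). Counts of called members in the gene lists below are to be set against these shares. The median log2 change of all tested genes was -0.0062. Changes of 8-fold or more (log2 of 3) were counted for 138 of the genes that rose and 26 of those that fell. Without day 7 replicate 10, 805 of 22940 genes (3.51%) were called, 720 of them in common and in the same direction, which is 85.9% of the 838.

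**Figure D1:**
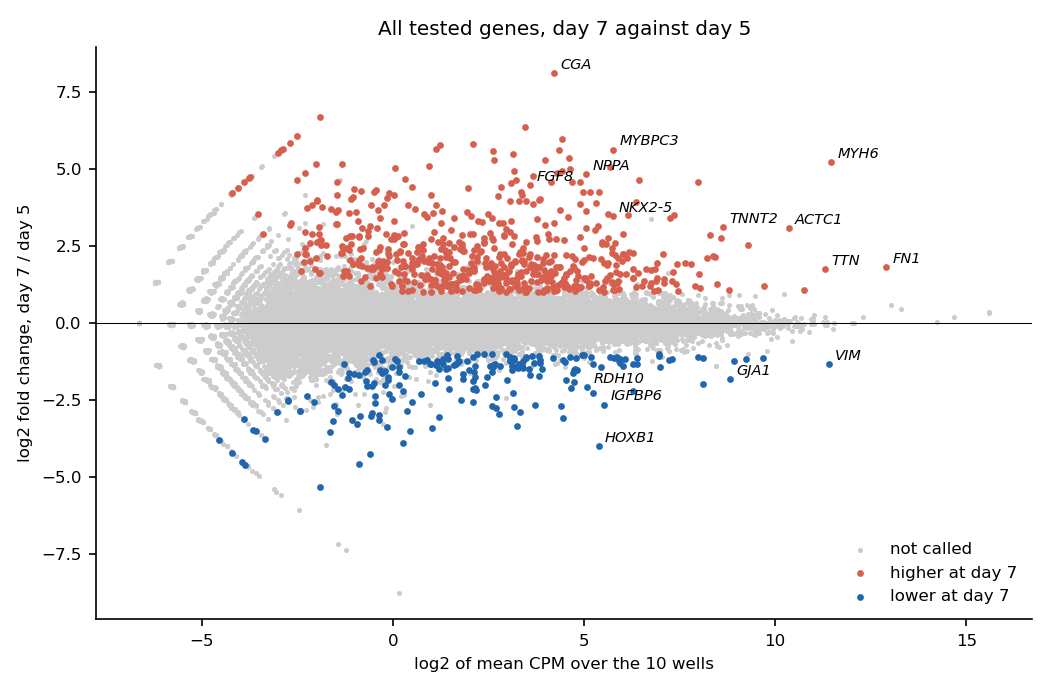
Log2 fold change of each tested gene from day 5 to day 7 (vertical axis) against the log2 of its mean CPM over the 10 wells (horizontal axis), with genes called higher in red, lower in blue and the rest in grey. The 630 higher genes outnumber the 208 lower ones, and MYH6, ACTC1, TNNT2, TTN and FN1 combine a rise with a high level.

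The 3 contractile markers rose together and HOXB1 fell, each in all 5 wells. MYBPC3 stood at 1.2001, 2.43, 1.88, 2.78 and 2.45 CPM at day 5 and 103, 65.9, 106, 128 and 127 CPM at day 7. Every day 7 well was far above every day 5 well, and the log2 change was 5.62 (SE 0.47, adjusted p 3.4e-11), or 49.2-fold. MYH6 stood at 179, 164, 54.5, 63.8 and 285 CPM at day 5 and 7313, 3727, 4745, 6498 and 5211 CPM at day 7, with a log2 change of 5.20 (SE 0.41, adjusted p 1.7e-11). Day 5 wells already differed among themselves, with replicates 3 and 4 lowest and replicate 5 highest, while all day 7 wells were far above them. TNNT2 stood at 105, 99.2, 62.3, 44.9 and 105 CPM at day 5 and 703, 525, 694, 788 and 858 CPM at day 7, with a log2 change of 3.10 (SE 0.25, adjusted p 2.1e-11). Its lowest day 7 well, replicate 2, was still above all day 5 wells. HOXB1, which encodes a homeobox transcription factor of the anterior HOX group, stood at 93.1, 103, 37.6, 99.1 and 60.4 CPM at day 5 and 4.69, 7.76, 6.01, 3.83 and 2.13 CPM at day 7. The groups did not overlap, and the log2 change was -4.01 (SE 0.51, adjusted p 3.9e-07), 16.1-fold lower at day 7. Without day 7 replicate 10 the log2 changes of MYBPC3, MYH6, TNNT2 and HOXB1 were 5.55, 5.22, 3.02 and -3.82. In bulk RNA, more or fewer cells of a type and more or less RNA per cell cannot be told apart.

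**Figure D2:**
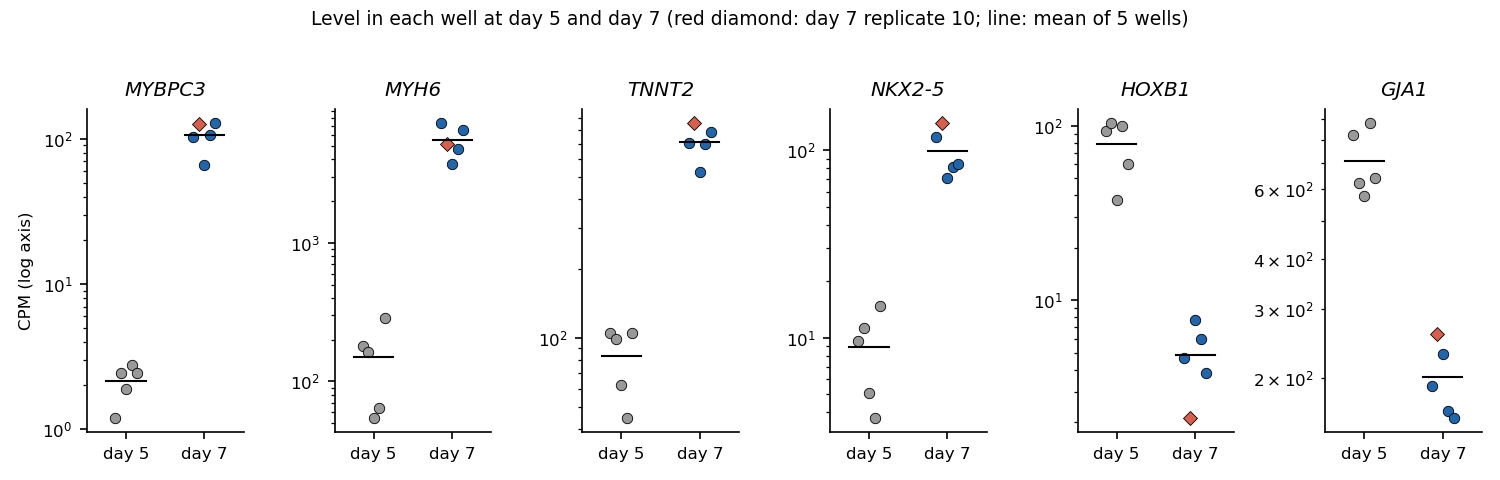
CPM of 6 genes in each of the 5 day 5 wells (grey) and 5 day 7 wells (blue; red diamond for replicate 10), on log axes with a different range per panel, and a line at the mean. For all 6 genes the day 5 and day 7 wells do not overlap, with MYBPC3, MYH6, TNNT2 and NKX2-5 higher and HOXB1 and GJA1 lower at day 7.

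Of the 13 thick filament genes, all tested, 9 rose, none fell and 4 did not pass, with a median log2 change of 2.52. MYOM1, which encodes the M-band protein myomesin, stood at 1.59, 2.79, 1.76, 3.00 and 2.79 CPM at day 5 and 52.3, 36.1, 51.0, 60.6 and 83.0 CPM at day 7 (log2 change 4.57 (SE 0.37, adjusted p 1.9e-11)). All day 7 wells were above all day 5 wells. The myosin light chains MYL3, MYL7 and MYL4 changed by 4.25, 2.52 and 2.16 on the log2 scale. MYL3 in day 7 replicate 10, at 130.2 CPM, was the highest of its day, and its log2 change was 3.75 without that well. The ventricular genes MYH7 and MYL2 did not pass. MYH7, the adult ventricular heavy chain, stood at 1.35, 9.42, 6.47, 19.7 and 7.10 CPM at day 5 and 14.8, 20.2, 20.0, 22.3 and 42.7 CPM at day 7, and its log2 change of 1.45 did not pass (adjusted p 0.393). Day 5 replicate 4 reached the level of the day 7 wells. MYL2, the ventricular regulatory light chain, had means of 0.117 and 0.148 CPM and did not pass (adjusted p 0.925). MYH6 and MYH7 are neighbouring genes with near-identical sequence, and reads that fit both could be divided between them by the estimation.

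Of 13 thin filament genes 8 rose, none fell and 5 did not pass, with a median log2 change of 2.09. ACTC1, the cardiac actin of the developing heart, stood at 342, 281, 195, 157 and 413 CPM at day 5 and 2701, 1620, 1705, 2220 and 3405 CPM at day 7 (log2 change 3.07 (SE 0.42, adjusted p 1.9e-06)). ACTA1, the skeletal actin that the embryonic heart also expresses, changed by 4.23 (SE 0.58, adjusted p 1.7e-06). TNNC1, the calcium-binding subunit, stood at 10.7, 9.62, 7.54, 11.4 and 17.7 CPM at day 5 and 127, 78.1, 87.0, 109 and 247 CPM at day 7, and TNNI1, the slow skeletal inhibitory subunit used by the fetal heart, at 81.3, 97.7, 68.0, 41.9 and 93.1 CPM at day 5 and 584, 419, 446, 458 and 852 CPM at day 7. Both groups of wells were apart for both genes, and the log2 changes were 3.51 (SE 0.35, adjusted p 3.0e-09) and 2.85 (SE 0.36, adjusted p 2.9e-07). TNNI3, the inhibitory subunit of the adult heart, went from 9.56, 7.46, 5.22, 8.91 and 10.5 CPM to 24.4, 13.6, 12.1, 12.4 and 38.5 CPM. Its wells did not overlap either, and its log2 change of 1.27 did not pass (adjusted p 0.101). TPM1, an alpha tropomyosin gene, rose by 1.08 (adjusted p 8.9e-04), but its log2 change was 0.98 without day 7 replicate 10, just under the fold required, which left 7 genes called. TPM2 passed on p (adjusted p 3.2e-04) but not on fold, at 0.89. ACTA1, ACTC1 and ACTA2 share nearly all of their coding sequence, so reads could be divided among them.

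Of 18 genes of titin, the Z-disc and the costamere, 15 rose and 3, MYPN and FHL2 among them, did not pass, with a median of 1.87. LDB3, a PDZ and LIM domain protein of the Z-disc, stood at 1.70, 2.55, 1.54, 1.78 and 2.72 CPM at day 5 and 52.5, 36.8, 50.1, 60.2 and 45.2 CPM at day 7 (log2 change 4.56 (SE 0.31, adjusted p 6.0e-13)). ACTN2, the actin cross-linker of the Z-disc, stood at 10.8, 11.1, 8.73, 8.69 and 11.6 CPM at day 5 and 166, 123, 155, 187 and 143 CPM at day 7 (log2 change 3.92 (SE 0.39, adjusted p 2.3e-09)). The 5 wells of each day were within a factor of 2 of one another for both genes. CSRP3 and MYOZ2, a muscle LIM protein and a calcineurin-binding Z-disc protein, changed by 3.97 and 3.53. TTN, the giant spring that spans from Z-disc to M-band, stood at 1500, 1259, 916, 834 and 1308 CPM at day 5 and 6095, 1725, 4911, 5253 and 1493 CPM at day 7. Day 7 replicates 1, 3 and 4 were far above the day 5 wells, while replicates 2 and 10 were near the level of day 5, and replicate 10 was just under the highest day 5 well. The log2 change of TTN was 1.74 (SE 0.42, adjusted p 0.0061), and 1.95 (adjusted p 0.0023) without replicate 10. Without that well 12 genes of the list were called: ANKRD1, PDLIM3 and TCAP no longer passed, with log2 changes of 2.44, 1.49 and 1.36.

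Of 12 genes of sarcomere assembly and its chaperones 10 rose, also without day 7 replicate 10, and the median was 2.48. SMPX, a small striated-muscle protein, stood at 0.929, 0.639, 0.557, 0.869 and 1.38 CPM at day 5 and 24.1, 16.3, 17.8, 20.8 and 42.7 CPM at day 7 (log2 change 4.78 (SE 0.34, adjusted p 8.3e-13)). UNC45B and SMYD1, which help to fold and assemble myosin, changed by 1.94 and 1.73. The small heat shock genes were uneven: HSPB7, CRYAB and HSPB1 rose by 3.85, 2.74 and 2.11, while HSPB3 had means of 0.184 and 0.222 CPM (adjusted p 0.905). BAG3, a co-chaperone of the Z-disc, had means of 20.4 and 23.9 CPM (adjusted p 0.756). HSPB2 changed by 3.26, with day 7 replicate 10 at 19.8 CPM against 4.71 to 7.73 in the other wells of that day. It was 2.77 (adjusted p 6.0e-04) without that well. Over the 4 sarcomere lists together, 42 of 56 genes rose and none fell, and the CPM ranges of the wells did not overlap for 44, all higher, against 11.5% of all tested genes (6.92% higher). Without day 7 replicate 10 the count was 38.

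Compared per length, in mean TPM at day 7 (SD, n = 5), MYL7 at 1231 ± 428 and ACTC1 at 551 ± 182 were above MYH6 at 471 ± 228 and TNNT2 at 389 ± 131. TNNI1 followed at 210.2 ± 43.4, TNNC1 at 105 ± 35.2, TTN at 49.0 ± 28.2, ACTN2 at 28.9 ± 15.3 and MYBPC3 at 12.4 ± 6.00. The order of these means was not tested. At day 5 the same genes were at 263 ± 87.8 (MYL7), 82.8 ± 46.7 (ACTC1), 52.4 ± 20.4 (TNNT2) and 15.8 ± 13.8 (MYH6) TPM.

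The promoters of 5 sarcomere genes that rose together are shown as the 250 bases before the gene start, from RefSeq on GRCh38.p14, read 5′ to 3′ in the direction of transcription. Capitals mark matches to 5 short motifs: the TATA box of core promoters, searched as the letters TATAAA on the gene strand only, the CArG box bound by SRF, the MEF2 site, a motif of GATA factors, searched as AGATAA, and a motif of TEAD factors, searched as the letters CATTCC, the last 4 on both strands.
MYBPC3 promoter (chr11:47352703-47352952, minus strand): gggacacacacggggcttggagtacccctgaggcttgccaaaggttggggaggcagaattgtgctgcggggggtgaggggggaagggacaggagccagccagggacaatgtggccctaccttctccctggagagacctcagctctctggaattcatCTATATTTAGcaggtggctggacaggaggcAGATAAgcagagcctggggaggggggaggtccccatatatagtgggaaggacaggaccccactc
MYH6 promoter (chr14:23408274-23408523, minus strand): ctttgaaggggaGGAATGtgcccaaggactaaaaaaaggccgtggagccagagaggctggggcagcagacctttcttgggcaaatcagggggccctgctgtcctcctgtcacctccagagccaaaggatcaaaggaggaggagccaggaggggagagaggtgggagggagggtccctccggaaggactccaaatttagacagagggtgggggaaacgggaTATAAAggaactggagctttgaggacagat
ACTC1 promoter (chr15:34795550-34795799, minus strand): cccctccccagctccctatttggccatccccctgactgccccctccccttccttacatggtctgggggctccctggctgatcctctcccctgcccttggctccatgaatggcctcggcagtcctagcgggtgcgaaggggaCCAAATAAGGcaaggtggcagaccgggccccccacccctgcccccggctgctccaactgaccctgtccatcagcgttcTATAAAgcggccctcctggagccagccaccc
MYL7 promoter (chr7:44141333-44141582, minus strand): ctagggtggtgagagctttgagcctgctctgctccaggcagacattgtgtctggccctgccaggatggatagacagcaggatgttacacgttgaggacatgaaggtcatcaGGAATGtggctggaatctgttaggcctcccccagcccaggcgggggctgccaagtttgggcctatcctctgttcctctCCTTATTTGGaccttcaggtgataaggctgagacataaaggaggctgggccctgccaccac
TTN promoter (chr2:178807424-178807673, minus strand): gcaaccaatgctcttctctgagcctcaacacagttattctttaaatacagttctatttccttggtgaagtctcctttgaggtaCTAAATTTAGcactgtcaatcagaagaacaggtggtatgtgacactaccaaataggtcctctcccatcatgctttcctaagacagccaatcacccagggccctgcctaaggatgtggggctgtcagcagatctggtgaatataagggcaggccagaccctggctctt
The MYBPC3 window holds a MEF2 site at bases -94 to -85 and an AGATAA at -64 to -59, counted from the gene start. In the MYH6 window a TATAAA lies at -30 to -25 and a TEAD motif at -238 to -233. The ACTC1 window has a CArG box at -109 to -100 and a TATAAA at -31 to -26, while windows of other ACTC1 starts held neither. The MYL7 window has a CArG box at -61 to -52 and a TEAD motif at -139 to -134, and the TTN window has a MEF2 site at -167 to -158. Promoters were present in the table for 39 of the 56 sarcomere genes, with 52 starts in all, some of them of the same gene and overlapping. Genes that did not pass are included, such as FHL2 and MYOM3, which held a MEF2 site. Several starts of FHL2, and of LDB3, which rose, held a CArG box, so such windows outnumber their genes. A CArG box was found in 17.3% of these 52 windows against 1.16% of all 35114, and a MEF2 site in 21.2% against 2.80%. The GATA motif was in 25% against 9.17%, the TEAD motif in 25% against 11.9%, the TATA box in 15.4% against 6.80% and TNAAGTG, an NKX2-5 motif searched on both strands, in 13.5% against 8.73%. Of the 27 windows of 20 HOX genes, none held a CArG box or a MEF2 site and 29.6% held the TEAD motif. These are matches of letters, not measured binding, and the motifs can overlap one another.

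Most calcium handling genes rose: 10 of 15 were called higher, none lower, with a median of 1.74. TRDN, a junctional protein of the sarcoplasmic reticulum, stood at 1.90, 1.1974, 1.63, 1.74 and 2.01 CPM at day 5 and 25.01, 20.2, 25.3, 28.7 and 34.0 CPM at day 7 (log2 change 3.97 (SE 0.34, adjusted p 7.3e-11)). PLN, the inhibitor of the calcium pump, stood at 6.50, 8.22, 6.04, 8.61 and 10.3 CPM at day 5 and 90.0, 83.9, 77.1, 83.5 and 121 CPM at day 7 (log2 change 3.52 (SE 0.36, adjusted p 3.8e-09)). SLC8A1, the sodium-calcium exchanger that works early in the embryonic heart, stood at 27.1, 32.5, 17.6, 19.1 and 37.1 CPM at day 5 and 335, 231, 284, 283 and 379.7 CPM at day 7 (log2 change 3.50 (SE 0.35, adjusted p 1.9e-09)). For all 3 genes the groups were apart. SLN, another pump inhibitor, was low throughout, with 0.0774, 0.0399, 0.214, 0 and 0 CPM at day 5, where 2 wells had none, and 1.23, 1.40, 1.49, 1.04 and 1.80 CPM at day 7 (log2 change 4.32 (SE 0.76, adjusted p 1.4e-04)). RYR2, the calcium release channel, changed by 1.73 and CACNA1C, the L-type channel, by 1.51. ATP2A2, the calcium pump itself, went from 260.1 to 408 CPM and did not pass (adjusted p 0.206). CASQ2, the calcium store protein, was at 0.142 and 0.159 CPM.

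Ion channel and gap junction genes were divided, with 5 of 15 higher, 1 lower and a median of 0.83. KCNIP2, a subunit of the channel that carries the transient outward potassium current, stood at 0.619, 0.599, 0.899, 0.913 and 0.855 CPM at day 5 and 25.4, 26.5, 32.4, 35.1 and 34.2 CPM at day 7 (log2 change 5.30 (SE 0.48, adjusted p 2.8e-10)). KCNJ5 and GJA5, an atrial potassium channel subunit and the connexin of atrium and conduction system, changed by 2.80 and 2.45. KCNQ1, a potassium channel gene, also rose, by 1.14. HCN4, the main pacemaker channel, passed on p (adjusted p 0.030) at a log2 change of 0.99, just under the fold required, and was called without day 7 replicate 10 (1.07 (adjusted p 0.028)). GJA1, which encodes connexin 43, fell: it stood at 823, 621, 577, 879 and 638 CPM at day 5 and 192, 231, 166, 159 and 259 CPM at day 7, with a log2 change of -1.81 (SE 0.23, adjusted p 5.4e-07). GJA1 made up most of the summed level of the list at day 5, which was 816 to 1147 CPM at day 5 and 536 to 608 CPM at day 7.

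Of 25 cardiac transcription factor genes 4 rose and none fell, with a median of 0.25, where 2.74% of all tested genes rose. NKX2-5 stood at 9.60, 11.2, 5.05, 3.74 and 14.8 CPM at day 5 and 118, 71.0, 80.9, 84.6 and 139 CPM at day 7 (log2 change 3.47 (SE 0.36, adjusted p 7.1e-09)). Every day 7 well was above every day 5 well. MYOCD, the SRF coactivator, stood at 57.7, 45.0, 34.6, 53.4 and 55.7 CPM at day 5 and 233, 151, 162, 206 and 206 CPM at day 7 (log2 change 1.96 (SE 0.27, adjusted p 1.8e-06)). MEF2C and IRX4, a ventricular factor, changed by 1.18 (adjusted p 0.0079) and 2.57 (adjusted p 1.2e-07). IRX4 remained low, at a mean of 4.23 CPM at day 7. GATA4 stood at 192, 191, 115, 149 and 158 CPM at day 5 and 201, 192, 155, 152 and 102 CPM at day 7, TBX5 at 65.9, 59.4, 14.3, 40.5 and 38.5 CPM at day 5 and 67.9, 55.9, 52.9, 47.7 and 24.9 CPM at day 7 and HAND1 at 78.1, 134, 208, 86.8 and 45.4 CPM at day 5 and 102, 151, 128, 80.9 and 68.1 CPM at day 7. The wells of both days overlapped for these 3 genes, and their log2 changes of -0.01, 0.19 and -0.06 did not pass (adjusted p 0.999, 0.875 and 0.976). ISL1, a second heart field factor, had means of 24.5 and 22.3 CPM (adjusted p 0.919).

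Of 18 second heart field and pharyngeal mesoderm genes 5 rose (FGF8, WNT2, OSR1, RSPO3 and HES1) and none fell, with a median of 0.24. FGF8, an FGF ligand that the outflow tract field needs, stood at 1.2001, 0.679, 0.942, 0.522 and 1.79 CPM at day 5 and 28.3, 13.0, 16.6, 21.6 and 35.3 CPM at day 7 (log2 change 4.47 (SE 0.49, adjusted p 2.3e-08)). WNT2 and OSR1, genes of the posterior field, changed by 3.24 and 2.09. RSPO3, a Wnt enhancer, changed by 1.13 (adjusted p 0.041), close to both thresholds. TBX1 and FGF10, genes of the anterior field, did not pass, with means of 3.57 and 5.32, and of 23.4 and 14.8 CPM. Among 18 FGF pathway genes 3 rose, none fell and the median was 0.061. ETV5, an ETS factor induced by FGF, stood at 14.4, 15.0, 10.4, 12.4 and 16.8 CPM at day 5 and 97.7, 68.4, 60.3, 80.01 and 105 CPM at day 7 (log2 change 2.57 (SE 0.36, adjusted p 2.4e-06)). ETV4 and SPRY4, the second an inhibitor of the pathway, changed by 1.83 (adjusted p 2.8e-07) and 1.84 (adjusted p 0.0065). The phosphatase gene DUSP6, also known as an FGF response gene, stood at 315, 265, 148, 398 and 265 CPM at day 5 and 515, 306, 278, 315 and 400.2 CPM at day 7 and did not pass (adjusted p 0.518). The receptor genes FGFR1 and FGFR2 had log2 changes of -0.66 and -0.90 (adjusted p 0.031 and 0.057), under the fold required.

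Among 24 Wnt genes 2 rose and 2 fell, with a median of 0.22, where 2.74% of all tested genes rose and 0.906% fell. DKK1, a secreted Wnt inhibitor, stood at 4.41, 3.07, 3.00, 3.48 and 4.09 CPM at day 5 and 17.2, 14.7, 17.1, 20.2 and 18.3 CPM at day 7 (log2 change 2.27 (SE 0.33, adjusted p 6.4e-06)), and WNT11, a ligand of the non-canonical branch, changed by 1.17 (adjusted p 0.0044). LEF1, a nuclear mediator, stood at 49.8, 51.7, 45.5, 68.2 and 33.4 CPM at day 5 and 24.1, 26.9, 27.2, 20.3 and 16.1 CPM at day 7 (log2 change -1.12 (SE 0.25, adjusted p 0.0032)). WNT8A changed by -1.70 (adjusted p 0.022), from a mean of 0.823 CPM. AXIN2 and SP5, read as feedback targets of the canonical branch, went from 16.7 to 22.6 and from 6.87 to 9.95 CPM and did not pass (adjusted p 0.118 and 0.485). Of 22 BMP and TGF-beta genes 3 rose, with a median of 0.19. BMP7 stood at 19.0, 16.2, 15.6, 17.8 and 23.3 CPM at day 5 and 99.8, 65.7, 74.2, 83.7 and 116 CPM at day 7 (log2 change 2.26 (SE 0.35, adjusted p 1.5e-05)). FST, which binds activin, and BMP2 changed by 2.11 (adjusted p 4.9e-05) and 1.34 (adjusted p 0.011). MSX2, a homeobox gene induced by BMP, was called lower without day 7 replicate 10 (-1.03 (adjusted p 0.014)). The response genes ID1 and ID3 had log2 changes of 0.60 and 0.51 and did not pass (adjusted p 0.218 and 0.343). In the Notch list 2 of 13 tested genes rose, the ligand JAG1 (1.25 (adjusted p 0.034)) and HES4 (1.11 (adjusted p 0.048)), and neither passed without day 7 replicate 10 (adjusted p 0.052 and 0.143).

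Of 39 HOX genes 28 could be tested, and 3 fell, 1 rose and 24 did not pass, with a median of -0.62. Besides HOXB1, HOXB2 fell, and stood at 32.5, 42.0, 30.1, 40.4 and 24.4 CPM at day 5 and 16.1, 20.1, 17.4, 10.9 and 13.2 CPM at day 7 (log2 change -1.12 (SE 0.26, adjusted p 0.0034)). All day 7 wells were under all day 5 wells. HOXB1 and HOXB2 are the most anterior genes of their cluster. Their neighbours HOXB3 and HOXB4 had means of 31.3 and 20.2, and of 25.4 and 16.7 CPM, and did not pass (adjusted p 0.311 and 0.399). The gene that rose, HOXA13, was near the detection limit (means 0.334 and 1.51 CPM, adjusted p 0.027) and did not pass without day 7 replicate 10 (adjusted p 0.069). The summed level of the HOX list was 140.0 to 252 CPM at day 5 and 45.3 to 97.4 CPM at day 7.

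Retinoic acid is made from retinol in 2 steps, by retinol dehydrogenases such as RDH10 and then by retinaldehyde dehydrogenases, and it sets anterior HOX expression. RDH10 fell, from 52.0, 49.3, 29.6, 89.3 and 53.1 CPM to 14.8, 11.2, 10.1, 11.9 and 16.6 CPM (log2 change -2.08 (SE 0.28, adjusted p 1.1e-06)), with no overlap of the wells. ALDH1A1, a retinaldehyde dehydrogenase, rose, from 1.24, 1.52, 8.35, 0.391 and 0.669 CPM to 18.1, 32.3, 27.5, 29.7 and 16.7 CPM (log2 change 3.36 (SE 0.62, adjusted p 2.5e-04)). At day 5 its replicate 3 stood above the other wells. ALDH1A2, the main enzyme of this step in the embryo, had means of 2.42 and 2.18 CPM (adjusted p 0.958). RXRG, a retinoid X receptor, rose by 3.53 to a mean of 3.21 CPM (adjusted p 5.0e-08). CYP26A1, the degrading enzyme and a retinoic acid target, went from 4.98 to 2.13 CPM and did not pass (adjusted p 0.168). In all 2 of 16 genes rose and 1 fell, with a median of -0.26. Without day 7 replicate 10, 2 were higher and 3 lower, with CYP26A1 (-2.25 (adjusted p 0.0020)) and the receptor gene RARG (-1.01 (adjusted p 0.011)) added, and the median was -0.60.

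Of 26 early mesoderm and primitive streak genes none rose and 2 fell, with a median of -0.58. APLNR, the apelin receptor of migrating mesoderm, stood at 230.5, 190.3, 147, 253 and 274 CPM at day 5 and 104, 95.03, 96.6, 105 and 89.6 CPM at day 7 (log2 change -1.16 (SE 0.30, adjusted p 0.012)). PDGFRA, a receptor of cardiac and paraxial mesoderm, changed by -1.14 (adjusted p 0.040), and by -1.07 (adjusted p 0.097) without day 7 replicate 10, while NODAL, a ligand of the streak, was called lower without that well (-1.28 (adjusted p 0.0058)). MESP1, TBXT and EOMES were at means of 1.30, 0.257 and 1.92 CPM at day 5 and did not pass. Of 17 pluripotency genes none rose and 3 fell, with a median of -0.79. POU5F1, the core pluripotency factor OCT4, stood at 43.4, 43.6, 36.5, 25.7 and 30.8 CPM at day 5 and 5.57, 4.02, 3.77, 3.34 and 33.7 CPM at day 7. Day 7 replicates 1 to 4 were under all day 5 wells, while replicate 10 was within the day 5 range. The log2 change of POU5F1 was -1.84 (SE 0.45, adjusted p 0.0072), and -3.11 (adjusted p 1.2e-07) without that well. L1TD1, an RNA-binding protein of stem cells, repeated the pattern, at 51.5, 39.9, 50.7, 61.04 and 64.8 CPM at day 5 and 18.3, 15.1, 13.9, 16.4 and 42.7 CPM at day 7 (log2 change -1.33 (adjusted p 0.0030), and -1.75 (adjusted p 6.4e-05) without replicate 10). ZFP42 stood at 89.7, 81.7, 74.8, 71.1 and 79.96 CPM at day 5 and 31.4, 45.1, 34.8, 36.3 and 36.1 CPM at day 7 (log2 change -1.11 (SE 0.20, adjusted p 1.5e-04)), and here replicate 10 was among the other wells. NANOG was under 1 CPM at both days (means 0.575 and 0.332). Without replicate 10, 5 genes of the list were called lower, with SOX2 and FOXD3 added.

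Of 18 genes for hormones and secreted or surface factors 9 rose and none fell, with a median of 1.19. Without day 7 replicate 10, 8 were higher and 1 lower: EDN1, the peptide endothelin, no longer passed (1.64 (adjusted p 0.080)) and the endothelin receptor gene EDNRB was called lower (-1.03 (adjusted p 0.0068)). NPPA, the atrial natriuretic peptide, stood at 1.82, 1.96, 0.642, 2.61 and 4.31 CPM at day 5 and 43.7, 47.5, 55.3, 58.4 and 117 CPM at day 7 (log2 change 4.82 (SE 0.71, adjusted p 7.1e-06)). Replicate 10 was highest at day 7, and the log2 change was 4.49 without it. NPPB, the related peptide, went from 26.2, 15.3, 5.48, 11.9 and 27.7 CPM to 35.7, 34.5, 22.4, 30.9 and 99.7 CPM and did not pass (adjusted p 0.396). The membrane proteins POPDC2 and BVES, members of one cyclic AMP-binding family, changed by 3.15 (adjusted p 5.1e-08) and 2.20 (adjusted p 2.7e-09), and VCAM1, an adhesion molecule used to sort young cardiomyocytes, by 3.07 (adjusted p 1.9e-07). Of 28 tested genes of muscle energy metabolism 11 rose, with a median of 0.86. CKM, the muscle creatine kinase, stood at 0.542, 0.838, 1.24, 2.00 and 1.26 CPM at day 5 and 44.4, 26.3, 31.8, 40.5 and 96.5 CPM at day 7 (log2 change 5.35 (SE 0.52, adjusted p 1.1e-09)), with replicate 10 highest at day 7 and a log2 change of 4.93 without it. PPARGC1A, a coactivator that promotes mitochondrial gene expression, stood at 1.43, 1.48, 1.33, 1.70 and 2.45 CPM at day 5 and 32.8, 20.4, 24.8, 25.4 and 32.2 CPM at day 7 (log2 change 4.01 (SE 0.37, adjusted p 4.4e-10)). PDK4 and CD36, of fatty acid use, changed by 4.29 (adjusted p 8.4e-06) and 3.14 (adjusted p 4.2e-05). COX6A2, the heart and muscle form of a respiratory chain subunit, changed by 4.67 (adjusted p 2.4e-06), from at most 3 counts in a day 5 well. LDHA and PGK1, enzymes of glycolysis, and the hexokinase gene HK2 had log2 changes of 0.11, 0.21 and -0.01 and did not pass.

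**Figure D3:**
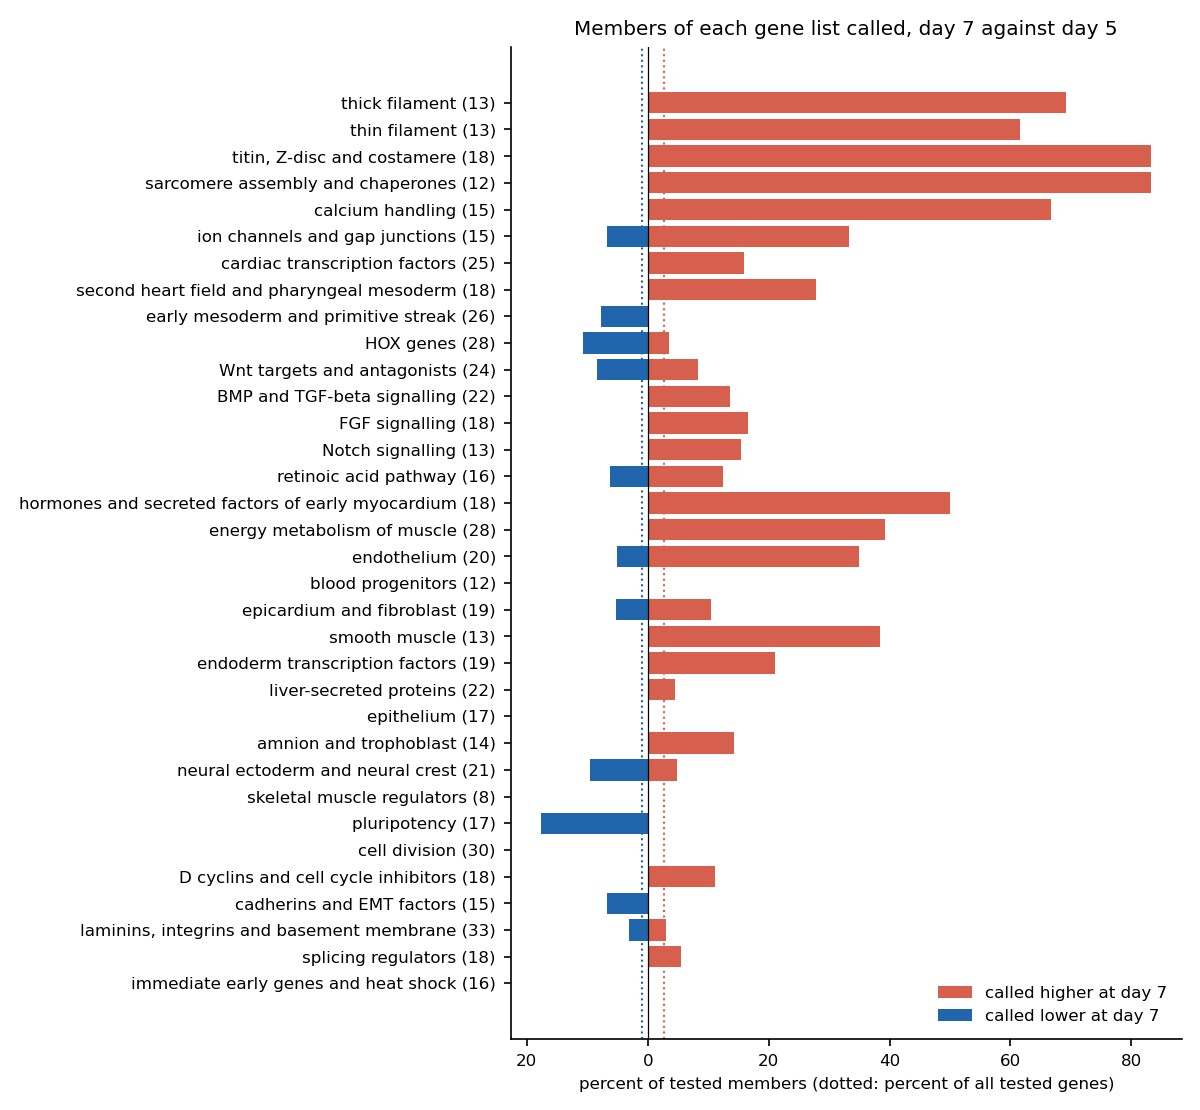
Percent of the tested members of each gene list that were called higher (red, to the right) or lower (blue, to the left) at day 7, with the number tested in brackets and dotted lines at 2.74% higher and 0.906% lower for all tested genes. The sarcomere, calcium, hormone and metabolic lists reach furthest to the right, and the HOX and pluripotency lists furthest to the left.

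Marker genes of other cell types were followed in the same wells, and their part in the results above was not tested. Of 20 endothelial genes 7 rose and 1 fell, with a summed level of 198 to 417 CPM at day 5 and 303 to 572 CPM at day 7, and day 7 replicate 10 was lowest of its day. Without that well ESAM, an endothelial adhesion molecule, was also called higher (1.59 (adjusted p 0.036)). EMCN, an endothelial surface mucin, stood at 0, 0.239, 0.0856, 0 and 0.0744 CPM at day 5 and 4.06, 5.46, 5.89, 5.85 and 1.88 CPM at day 7 (log2 change 5.76 (SE 0.70, adjusted p 1.7e-07)). CDH5, the endothelial cadherin, stood at 9.99, 19.7, 27.9, 2.83 and 6.51 CPM at day 5 and 37.3, 62.9, 52.4, 44.03 and 19.3 CPM at day 7 (log2 change 1.69 (SE 0.41, adjusted p 0.0063)). Day 5 replicate 3 was above day 7 replicate 10, so the groups overlapped. Among the 7 endothelial genes that rose, only EMCN had CPM ranges of the wells apart. Of all tested genes 6.92% were apart and higher. ETV2, the early inducer of the lineage, stood at 4.53, 3.79, 2.83, 6.56 and 4.80 CPM at day 5 and 0.596, 1.15, 0.786, 1.46 and 1.11 CPM at day 7 (log2 change -2.13 (SE 0.40, adjusted p 3.6e-04)), lower in all day 7 wells. None of 12 tested blood genes was called by edgeR, none had an unadjusted p under 0.05, and DESeq2 called none. The defining gene PTPRC was at 0.0164 and 0.00718 CPM. The list summed to 64.9 to 96.0 CPM at day 5 and 59.0 to 77.2 CPM at day 7.

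Of 13 smooth muscle genes 5 rose, and several of these are also used by the embryonic heart. ACTA2, an actin of smooth muscle and of early cardiomyocytes, stood at 16.6, 18.5, 22.1, 17.1 and 28.1 CPM at day 5 and 508, 328, 339, 436 and 795 CPM at day 7 (log2 change 4.55 (SE 0.48, adjusted p 6.4e-09)). MYH11, the smooth muscle myosin heavy chain, and LMOD1, a leiomodin, changed by 4.11 (adjusted p 7.6e-07) and 2.62 (adjusted p 1.2e-06). TAGLN and CNN1 passed only with day 7 replicate 10 (adjusted p 0.105 and 0.064 without it). The list summed to 1001 to 1080 CPM at day 5 and 1524 to 2440 CPM at day 7. Of 19 epicardial and fibroblast genes FN1 and UPK1B rose and TNC fell. FN1, which encodes fibronectin and is expressed in many cell types, stood at 3508, 3245, 3847, 2411 and 4058 CPM at day 5 and 14862, 11613, 10074, 15284 and 7923 CPM at day 7 (log2 change 1.81 (SE 0.29, adjusted p 3.5e-05)) and made up most of the list's summed level of 5228 to 9316 CPM at day 5 and 10685 to 19317 CPM at day 7. TNC, the matrix protein tenascin C, changed by -1.23 (adjusted p 0.0083). UPK1B, at 0.188 and 0.616 CPM, did not pass without day 7 replicate 10 (adjusted p 0.155). WT1 and TBX18, the defining epicardial factors, had means of 7.23 and 14.5, and of 6.35 and 13.5 CPM, and did not pass (adjusted p 0.459 and 0.225).

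Genes of the endoderm lists were present at both days. Of all tested genes 2.74% rose and 0.906% fell. Of 19 endoderm transcription factors 4 rose (ONECUT1, HHEX and HNF4G among them) and none fell, with a median of 0.068 and a summed level of 504 to 626 CPM at day 5 and 461 to 640.1 CPM at day 7. GATA4, GATA6 and PROX1 are also in the list of cardiac transcription factors. The summed level thus counts them too, with GATA4 at the levels given above. ONECUT1 stood at 1.82, 1.84, 1.54, 0.956 and 2.98 CPM at day 5 and 14.4, 12.8, 15.0, 17.6 and 5.28 CPM at day 7 (log2 change 2.83 (SE 0.52, adjusted p 2.6e-04)), and HHEX did not pass without day 7 replicate 10 (adjusted p 0.063). FOXA2 and SOX17, the defining factors, had means of 26.7 and 30.5, and of 7.93 and 3.88 CPM, and did not pass. Of 22 liver-secreted proteins SERPINA1 rose, from 3.02, 3.59, 7.75, 0.9999 and 2.31 CPM to 9.90, 53.8, 53.1, 32.5 and 18.1 CPM (log2 change 3.25 (SE 0.85, adjusted p 0.013)), and the list summed to 822 to 2432 CPM at day 5 and 908 to 2484 CPM at day 7. AFP, the fetal serum protein, went from 8.52, 17.1, 57.1, 1.96 and 9.30 CPM to 37.3, 329, 351, 208 and 53.5 CPM and did not pass (adjusted p 0.063). None of 17 epithelial genes was called by edgeR or DESeq2 or had an unadjusted p under 0.05, and they summed to 3927 to 4764 CPM at day 5 and 3535 to 6451 CPM at day 7. Day 7 replicate 10 was the highest of its day, where the median was 3970 CPM, and without that well the count of edgeR's calls was 1, lower. In the neural list 1 of 21 genes rose (NES, 1.08 (adjusted p 0.0055)) and 2 fell (ZIC2, -1.33 (adjusted p 0.037), and PAX3, -2.02 (adjusted p 0.034)), with a summed level of 329 to 399 CPM at day 5 and 547 to 764 CPM at day 7, where day 7 replicate 10 was highest. Without that well 4 genes were lower, with SOX2 (-1.87 (adjusted p 0.044)) and FOXD3 (-4.74 (adjusted p 0.032)) added, and the median of the list went from -0.49 to -0.72. SOX2 and FOXD3 are in the pluripotency list too, and these are the same calls as given there. SOX1 had means of 0.0328 and 0 CPM. None of 8 tested skeletal muscle regulators was called by edgeR or DESeq2 or had an unadjusted p under 0.05, their summed level was 12.5 to 29.7 CPM at day 5 and 20.5 to 31.8 CPM at day 7, and MYOD1 and MYF5 were too low to test.

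Among the 12 largest rises with a mean of at least 10 TPM and TPM ranges apart, 5 encode secreted factors other than NPPA. CGA, the alpha subunit shared by the glycoprotein hormones, stood at 0.0387, 0.160, 0.0856, 0.261 and 0.112 CPM at day 5 and 29.8, 22.02, 25.4, 40.9 and 66.9 CPM at day 7 (log2 change 8.10 (SE 0.84, adjusted p 5.8e-09)). No day 5 well had more than 6 counts, and day 7 replicate 10 was highest. The list of amnion and trophoblast genes, to which CGA belongs, had 1 other rise among 14 tested, ITGB6 (2.31 (adjusted p 0.021)), which did not pass without that well (adjusted p 0.109). Without it 2 genes of the list were called lower, TFAP2C (-2.35 (adjusted p 0.0011)) and KRT7 (-2.17 (adjusted p 0.027)), and its median went from 0.26 to -0.52. The list's summed level was 102 to 309 CPM at day 5 and 197 to 341 CPM at day 7, and the defining genes GATA3 and TFAP2A had means of 17.4 and 8.91, and of 3.61 and 2.12 CPM. TRH, the thyrotropin-releasing hormone, stood at 1.94, 1.72, 0.856, 1.65 and 1.41 CPM at day 5 and 50.4, 45.7, 51.9, 51.8 and 42.6 CPM at day 7 (log2 change 4.99 (SE 0.41, adjusted p 3.1e-11)). CRHBP, which binds corticotropin-releasing hormone, stood at 6.23, 7.30, 12.3, 1.74 and 5.50 CPM at day 5 and 191, 163, 163, 177 and 133 CPM at day 7 (log2 change 4.64 (SE 0.42, adjusted p 2.7e-10)). ANGPT1, a ligand of the endothelial receptor TEK, stood at 3.10, 3.59, 7.54, 2.91 and 3.68 CPM at day 5 and 99.7, 65.4, 62.1, 67.0 and 105 CPM at day 7 (log2 change 4.26 (SE 0.40, adjusted p 6.9e-10)). For TRH, CRHBP and ANGPT1 the groups were far apart and day 7 replicate 10 lay near the other wells. The fifth was FGF8. The other 7 were MYBPC3, CKM, KCNIP2, MYH6, NPPA, SMPX and ACTA2.

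The 12 largest falls by the same rule include HOXB1, RDH10, GJA1 and POU5F1, given above, the last apart in TPM but overlapping in CPM. Among the others, 3 encode secreted regulators of proteases and growth factors. IGFBP6, a binding protein for insulin-like growth factors, stood at 88.6, 82.4, 45.8, 82.9 and 99.3 CPM at day 5 and 11.8, 16.2, 13.7, 10.4 and 11.3 CPM at day 7 (log2 change -2.65 (SE 0.30, adjusted p 3.9e-08)). PLAT, the tissue plasminogen activator, stood at 89.0, 119, 137, 191 and 101 CPM at day 5 and 32.0, 37.0, 35.5, 20.0 and 11.7 CPM at day 7 (log2 change -2.23 (SE 0.58, adjusted p 0.013)). SERPINE2, an inhibitor of such proteases, stood at 432, 335, 399, 482 and 541 CPM at day 5 and 135, 111, 95.5, 119 and 91.8 CPM at day 7 (log2 change -1.99 (SE 0.35, adjusted p 1.4e-04)). The wells of both days were apart for all 3 genes. GAD1, the enzyme that makes the transmitter GABA, FNDC5, a membrane protein that releases irisin, and PTGIS, the prostacyclin synthase, changed by -1.53 (adjusted p 2.1e-04), -1.48 (adjusted p 1.9e-04) and -1.44 (adjusted p 0.0039). CYB5D1 changed by -1.41 (adjusted p 0.050). Its day 5 wells ran from 48.3 to 217 CPM, and it did not pass without day 7 replicate 10 (adjusted p 0.131). VIM, the intermediate filament of mesenchymal cells, was the 1 gene called among 15 cadherin and epithelial-mesenchymal transition genes. It stood at 4532, 4519, 3155, 3516 and 3611 CPM at day 5 and 1442, 1748, 1688, 1378 and 1445 CPM at day 7 (log2 change -1.33 (SE 0.21, adjusted p 2.3e-05)).

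None of 30 cell division genes was called by edgeR, DESeq2 or limma on TPM, and 2 had an unadjusted p under 0.05, both lower, with a median log2 change of 0.087 and a summed level of 2818 to 3304 CPM at day 5 and 2518 to 3332 CPM at day 7. MKI67, a marker of cycling cells, stood at 99.0, 115, 147, 88.1 and 64.5 CPM at day 5 and 151, 97.5, 115, 111 and 56.8 CPM at day 7 (log2 change 0.05 (SE 0.37, adjusted p 0.982)). Among 18 D cyclin and cell cycle inhibitor genes CDKN2B (2.17 (adjusted p 0.0042)) and CDKN1A (1.10 (adjusted p 0.016)) rose, and CDKN1A did not pass without day 7 replicate 10 (adjusted p 0.082). CDKN1B passed on p (adjusted p 0.0034) at a log2 change of 0.79.

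The wells were coated with laminins, and the cells' own laminin genes were also followed. Of 33 laminin, integrin and basement membrane genes 1 rose and 1 fell, near the 2.74% and 0.906% of all tested genes, with a median of 0.27. LAMA4, the alpha chain of laminins made by muscle and vessels, stood at 0.774, 1.28, 0.557, 1.91 and 2.53 CPM at day 5 and 35.9, 25.7, 36.1, 44.5 and 27.7 CPM at day 7 (log2 change 4.58 (SE 0.34, adjusted p 3.8e-12)), with no overlap of the wells. LAMA3 changed by -1.22 (adjusted p 0.039), from a mean of 0.954 CPM. LAMA5 and LAMB2, chains of the laminins used as coating, had means of 222 and 236, and of 220.1 and 283 CPM, and did not pass (adjusted p 0.955 and 0.572). LAMA1, the chain of the early embryo, passed on p (adjusted p 0.039) at a log2 change of -0.91. The integrin gene ITGB3 was called higher without day 7 replicate 10 (1.29 (adjusted p 0.041)).

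The change from day 5 to day 7 was then set against the change of the next 2 days, by testing the difference between both steps in the same fit. The steps share the day 7 wells. The difference was called for 157 genes (0.684% of those tested), with 142 of them more positive from day 5 to day 7 (0.619%) and 15 more negative (0.0653%). Of the 56 sarcomere genes 15 were called, all more positive in the earlier step. Without day 7 replicate 10 the difference was called for 105 genes, 95 more positive and 10 more negative. The values that follow are from all wells. The mean levels of MYH6 at days 3, 5, 7 and 9 were 19.8, 149, 5499 and 7150 CPM, and its difference between steps was 4.82 (SE 0.58, adjusted p 1.9e-06). For MYBPC3 they were 1.82, 2.15, 106 and 282 CPM, with a difference of 4.21 (SE 0.64, adjusted p 7.3e-05), and for TNNT2 4.98, 83.4, 714 and 996 CPM, with 2.62 (SE 0.39, adjusted p 5.8e-05). NPPA, at 1.38, 2.27, 64.5 and 628 CPM, went on to gain by day 9, and its difference did not pass (1.53 (SE 1.02, adjusted p 1.0000)). The 4 largest positive differences among genes of at least 10 TPM with day 5 and day 7 TPM ranges apart were those of CGA (7.78 (SE 1.08, adjusted p 2.4e-05)), FGF8 (5.72 (SE 0.71, adjusted p 3.2e-06)), KCNIP2 (5.34 (SE 0.67, adjusted p 3.2e-06)) and CRHBP (5.19 (SE 0.60, adjusted p 1.5e-06)). The rule found 2 negative ones, IGFBP6 (-2.79 (SE 0.52, adjusted p 0.0019)) and RDH10 (-2.43 (SE 0.49, adjusted p 0.0047)). FGF8 stood at 5.60, 1.03, 23.0 and 9.67 CPM and KCNIP2 at 0.904, 0.777, 30.7 and 29.8 CPM on the 4 days. HOXB1 stood at 24.4, 78.7, 4.88 and 1.05 CPM, and its difference did not pass (-1.80 (SE 0.85, adjusted p 0.823)).

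Against the 2 days before, from day 3 (3 wells) to day 5, the difference was called for 1214 genes (5.29%), with 583 more positive from day 5 to day 7 (2.54%) and 631 more negative (2.75%). The steps share the day 5 wells. Genes were ranked only with a mean of at least 10 TPM at day 5 or 7 and TPM ranges of these days apart. By that rule the most positive differences were those of FGF8 (6.90 (SE 0.92, adjusted p 2.3e-06)), TRH (6.30 (SE 0.76, adjusted p 3.5e-07)), CKM (6.26 (SE 0.95, adjusted p 1.9e-05)) and KCNIP2 (5.52 (SE 0.90, adjusted p 5.6e-05)). Of the 56 sarcomere genes 14 were more positive and 3 more negative, of 26 early mesoderm genes 11 and 1, and of 28 genes of muscle energy metabolism 10 and none. The early mesoderm list had a median difference of 2.41. Yet none of its genes rose from day 5 to day 7, and its median change over that step was -0.58. A more positive difference is thus not by itself a gain at day 7. FGF pathway genes had 7 of 18 called, all more positive. ETV5 (68.8, 13.8, 82.2 and 85.7 CPM on the 4 days) and SPRY4 (64.9, 11.4, 41.1 and 44.4 CPM) were lowest at day 5, as was DKK1 (28.9, 3.61, 17.5 and 28.7 CPM). By the same rule the most negative were those of PLAT (-9.01 (SE 1.16, adjusted p 1.1e-06)), IGFBP6 (-6.71 (SE 0.54, adjusted p 1.0e-10)), HOXB1 (-5.70 (SE 0.84, adjusted p 1.2e-05)) and GUCY1A1 (-5.53 (SE 0.63, adjusted p 1.4e-07)), a subunit of the nitric oxide receptor. These 4 genes had their highest mean of the 4 days at day 5, at 127, 79.8, 78.7 and 109 CPM. HOX genes had 6 of 28 called, all more negative. MYBPC3 had a difference of 5.39 (SE 0.83, adjusted p 2.3e-05), with little change before day 5, while ACTC1, at 24.1, 277, 2330 and 2758 CPM, and TNNT2 had differences of -0.46 (SE 0.71, adjusted p 0.836) and -0.97 (SE 0.43, adjusted p 0.217), which did not pass. Among cardiac transcription factors 8 of 25 were more negative and 1 was more positive. TBX5, with means of 1.01, 43.7, 49.9 and 49.4 CPM, and MEF2C, with 0.998, 49.9, 113 and 104 CPM, had differences of -5.25 (SE 0.68, adjusted p 1.1e-06) and -4.46 (SE 0.57, adjusted p 9.1e-07).

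**Figure D4:**
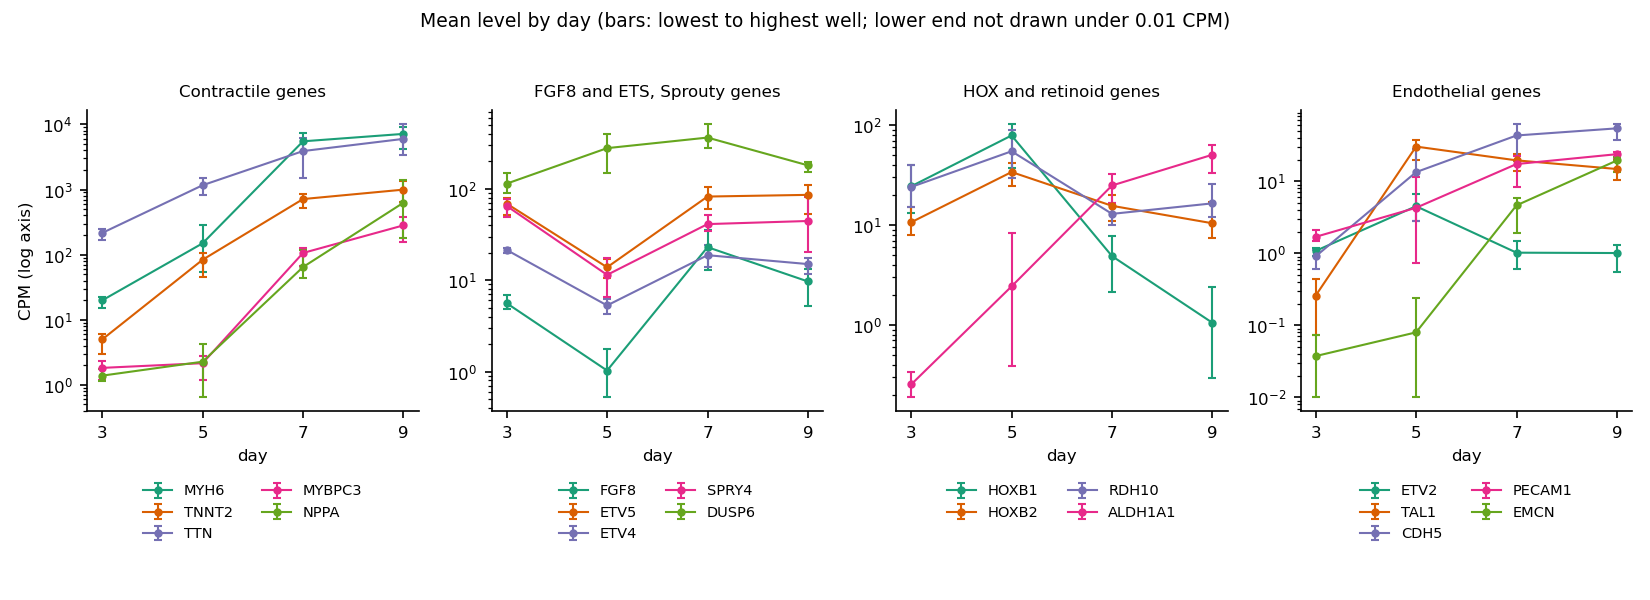
Mean CPM at days 3, 5, 7 and 9 on log axes for 4 sets of genes, with bars from the lowest to the highest well (3 wells at day 3 and 5 at the other days; lower ends under 0.01 CPM are drawn at 0.01). MYH6 and MYBPC3 rise most steeply between days 5 and 7, FGF8, ETV5, ETV4 and SPRY4 are lowest at day 5, HOXB1, HOXB2 and RDH10 are highest at day 5, and the mean of EMCN is under 0.1 CPM until day 5.

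Several named genes lie over another annotated gene on the opposite strand, among them NPPA with CLCN6, ACTA2 with its antisense gene and FAS, HSPB2 with CRYAB, LEF1, VIM and TBX5 with their antisense genes, and POU5F1 with TCF19. The libraries are stranded, but whether the counting used strand is not given in the sources used here, so reads of such pairs may not have been kept apart.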

How the data were processed

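RNA from 44 wells was sequenced, and the 5 day 5 and 5 day 7 libraries are described here. Per the submitters' processing notes, the tools were cutadapt, STAR 2.5.2b and RSEM 1.2.31 with genome build hg38. The annotation release and the use of strand are not given in the sources used here. The authors deposited estimated counts per gene, of which 93.8% are whole numbers, and TPM, a level per transcript length. The RNA integrity number, a quality score, is as the authors deposited it. Gene names came from GENCODE release 29 for 56769 of 60499 gene IDs.

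Estimated counts were rounded and fitted with edgeR 4.0.16 (TMM scaling, filterByExpr, quasi-likelihood test), one mean for each of 12 groups of all 44 libraries, so that all groups share one estimate of the spread. DESeq2 1.42.0, limma 3.58.1 on log2(TPM + 1), other scalings, filters and sample sets, and leaving out each well in turn were alternatives. The exact permutation tests used scipy 1.17.1. Counts were simulated for the 22955 genes with day 5 and day 7 made equal but for 200 genes, drawn from those of at least 1 CPM. The test called 91% of the 4-fold and 42% of the 2-fold changes, and 1 unchanged gene. A 2-fold change lies at the fold required, and 65% of these passed on adjusted p. Changes in genes under 1 CPM were not simulated. The simulated wells were independent, with one spread per gene shared by all groups, as the fit assumes. No well was shifted like day 7 replicate 10, so the count of unchanged genes called may not carry over to these data.

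Genes were named by rule: the 4 markers, the 12 largest called rises and falls with at least 10 TPM in the higher group and TPM ranges apart, the called members of each list with the largest changes (up to 4 each way, at least 1 TPM), and the 4 largest differences between steps each way. Other genes named were chosen after their values were seen, and some genes are not reported here. The members and lists were chosen with earlier results of these data known.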

Additional observations from a re-analysis of the deposited data

Results flagged for a closer look

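In a group of 5 wells, a single well was set apart when its gap to the nearest other well took up more of the whole range than Dixon's test allows at 95%. Chance does so for about 1 in 20 groups. The 15 cases below came from 186 groups of a named gene and a day, 10 of them in day 7 replicate 10 and 4 in day 5 replicate 3. The RNA integrity number of day 5 replicate 4 was 8.4, against 9.8 to 10 in the other day 5 wells.

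In day 7 replicate 10 the muscle genes CKM (96.5 CPM against 26.3 to 44.4 in the other day 7 wells), NPPA (117 against 43.7 to 58.4), MYL3 (130 against 33.0 to 50.0), CSRP3 (29.6 against 13.3 to 17.3) and HSPB2 (19.8 against 4.71 to 7.73) were high. In the same well POU5F1 was at 33.7 CPM against 3.34 to 5.57, L1TD1 at 42.7 against 13.9 to 18.3, TAGLN at 328 against 142 to 178 and CDKN1A at 24.2 against 12.5 to 15.2. WNT11 was low there, at 25.2 CPM against 32.6 to 35.5.

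In day 5 replicate 3, ANGPT1 was at 7.54 CPM against 2.91 to 3.68 in the other day 5 wells, CYB5D1 at 217 against 48.3 to 79.3, CSRP3 at 1.97 against 0.736 to 1.08 and ALDH1A1 at 8.35 against 0.391 to 1.52. In day 5 replicate 4, GJA5 was low, at 0.478 CPM against 1.16 to 1.28.

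The change from day 5 to day 7 differed from that of the next 2 days for 157 genes and from that of the 2 days before for 1214 genes, by edgeR's test of the difference itself.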

How the results depend on the processing

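The 838 calls became 460 where a mean of at least 1 TPM was required, 278 when edgeR's glmTreat tested against the fold itself (88.5% higher) and 1353 with no fold required. On log2(TPM + 1), on log2(TPM + 0.1) and on log2(TPM + 1) of all genes above 0 in 3 libraries, limma gave 258, 345 and 224, with 65.9%, 69.0% and 62.9% of calls higher against 75.2%. A fit of the compared groups alone gave 991 for day 7 against day 5, 1113 when day 7 replicate 10 was also left out (64.5% higher), 358 for the difference from the next step (79.1% higher against 90.4%) and 2202 for that from the step before. Leaving out 1 well gave 710 to 862, 105 to 152 and 938 to 1185 genes for the 3 comparisons. With the replicate number as a block the counts were 887, 210 and 1223. Deviations of same-numbered wells from their day means correlated at 0.102 on average in 4 pairs (from -0.0418 to 0.260). The wells were not paired by number in the main fit, and whether they should be was not settled. Of these pairs 3 also share a sequencing lane, and wells of one lane correlated at 0.116 (5 pairs), against -0.0288 for wells sharing neither (19). With the sequencing lane as a block, chosen after the data were seen, the counts were 831, 162 and 1203. None of the 92 called genes named by rule changed direction under those of the 23 alternatives that tested it. Of these, leaving out a well cost between 4 and 10 their call, most often HES4, HHEX, JAG1, CYB5D1, PDGFRA, RSPO3 and ZIC2, and glmTreat cost 35.

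The mitochondrially encoded share differed by 0.0196 percentage points as a share of counts and by -0.0030 as a share of TPM, and by -0.0050 to 0.0537 when 1 well was left out. The 7SL share differed by 1.18 points, and by -0.772 to 2.86 when 1 well was left out, with -0.0286 without day 7 replicate 10. A well at 0 allows up to 3 counts, so changes under that level were not detectable at this depth.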

Other observations

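Splicing regulators and stress genes have not been described above. RBFOX1, which encodes a splicing factor of heart and brain, was the 1 gene of 18 splicing regulators that rose, with 0.619, 0.679, 0.685, 1.43 and 0.781 CPM at day 5 and 1.71, 1.72, 2.36, 3.00 and 1.68 CPM at day 7 and a log2 change of 1.32 (SE 0.35, adjusted p 0.015). All tested members of this list had a median log2 change of 0.29, and 2.74% of all tested genes rose. RBM24 and RBM20, splicing factors of sarcomere transcripts, had means of 41.3 and 59.2, and of 52.0 and 48.4 CPM, and did not pass (adjusted p 0.260 and 0.929). MBNL1, which takes part in the switch to adult splice forms, passed on p (adjusted p 0.015) at a log2 change of 0.86. None of 16 immediate early and heat shock genes was called by edgeR or DESeq2 or had an unadjusted p under 0.05, with a summed level of 396 to 583 CPM at day 5 and 442 to 649 CPM at day 7.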
